A study of Mus musculus with 53 samples.

Results

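The genes described here are 8 genes of cholesterol synthesis, chosen by name as targets of the transcription factor SREBP2: Srebf2, which encodes SREBP2 itself, and the enzyme genes Hmgcs1, Idi1, Fdps, Sqle, Lss, Cyp51 and Dhcr7. Each symbol matched 1 of the 55421 gene rows of a table of raw RNA-seq counts, and all 8 passed the low-count filter in every comparison. The table covers 53 mouse libraries in 11 groups, made from whole intestinal tissue of mice in which VillinCreER, a tamoxifen-inducible recombinase driven in the intestinal epithelium, carried out the deletions or the activation. The study compared tumours and tissue soon after induction, with changes driven by BRAF activation and loss of the TGF-beta receptor ALK5 with those driven by loss of Apc, and tested how 2 treatments acted at day 30. Each genotype was set against the WT group of its own tissue and day, and WT mice also carried VillinCreER and received tamoxifen.

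In the proximal colon, BA tumours (VillinCreER BrafV600E/+ Alk5fl/fl, n = 4 mice) were paired with WT tissue for which no day is given (n = 3). At day 30 after induction the proximal colon of WT mice (n = 4) was compared with that of BA mice (n = 5), BA mice given an antibiotic cocktail (n = 5), A mice (VillinCreER Alk5fl/fl, n = 4) and A mice given sulindac, an inhibitor of cyclooxygenases (n = 4). The antibiotics were ampicillin, neomycin and metronidazole at 1 g/L each and vancomycin at 500 mg/L in the drinking water from the day after tamoxifen. Sulindac was given at 0.4 g/L for 14 days, followed by plain water. The paper used this high dose to injure and inflame the proximal colon for a short time. In the small intestine, Apcfl/fl mice at day 4 (n = 10) were compared with WT mice at day 4 (n = 6), and primary tumours of Apcfl/+ mice (n = 5) with WT tissue without a stated day (n = 3). The labels give a mixed C57BL/6J background for all groups except the Apcfl/+ tumours and their WT tissue, which are listed as inbred C57BL6/J. The deleted and activated alleles lie in epithelial cells only, while the RNA is that of the whole tissue, so that fewer cells of a type and less RNA per cell cannot be told apart. Equal replicate numbers stand for different mice, and p-values measure the spread between mice within a group.

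Cells make cholesterol from acetyl-CoA through the mevalonate pathway, which also supplies isoprenoids for the modification of proteins. When sterols in the endoplasmic reticulum fall, SCAP escorts SREBP2 to the Golgi apparatus, where proteases release its active part, which enters the nucleus and raises transcription of nearly every enzyme gene of the pathway and of its own gene, whereas INSIG proteins hold it back when sterols are plentiful. In the intestine the pathway serves the renewal of the epithelium and runs beside uptake of cholesterol from food and bile. Along the pathway, HMGCS1 makes HMG-CoA, IDI1 interconverts the isoprenoid building blocks and FDPS joins them into farnesyl diphosphate. SQLE then oxidises squalene in a rate-limiting step, LSS closes the ring to lanosterol, CYP51 removes a methyl group from lanosterol and DHCR7 acts at the end of a sterol branch, on 7-dehydrocholesterol.

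SREBP2 binds short sterol regulatory elements, and the factor NF-Y, which binds CCAAT, is known to act with it. The reference table of RefSeq promoters (GRCm38.p6) held 6 of the 8 genes, Srebf2, Hmgcs1, Idi1, Lss, Cyp51 and Dhcr7, with 3 start sites for Dhcr7. The 250 bases before each start were searched on both strands for TCACNCCA, a form of the sterol regulatory element, for CCAAT, for the GC box GGGCGG and for the E-box CACGTG. TCACNCCA occurred in 2 of the 6 genes, 137 bases before the start of Hmgcs1 and 162 bases before that of Srebf2, and in 4.2% of the 27025 genes of the table. CCAAT lay in all 6, in Dhcr7 only before its start number 3, and in 37.5% of all genes, and GGGCGG lay in all 6 and in 35.4%. CACGTG was found in 1 of the 6, before the second start of Dhcr7, and in 6.86%. The windows of 4 genes are printed 5′ to 3′ on the gene's strand with TCACNCCA and CCAAT or their reverse complements in capitals: the 2 genes with TCACNCCA, Cyp51 as the enzyme gene that followed the other members most closely, and Dhcr7, the member that did not follow them, at its start number 3. A match describes letters and not a bound site. The windows are chr15:82147019-82147268 (+) for Srebf2, chr13:119690101-119690350 (+) for Hmgcs1, chr5:4104698-4104947 (-) for Cyp51 and chr7:143829964-143830213 (+) for Dhcr7.
Srebf2: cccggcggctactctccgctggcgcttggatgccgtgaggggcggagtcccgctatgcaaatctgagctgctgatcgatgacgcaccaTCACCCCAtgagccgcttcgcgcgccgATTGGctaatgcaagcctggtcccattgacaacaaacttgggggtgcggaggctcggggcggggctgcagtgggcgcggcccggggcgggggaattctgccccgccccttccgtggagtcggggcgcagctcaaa
Hmgcs1: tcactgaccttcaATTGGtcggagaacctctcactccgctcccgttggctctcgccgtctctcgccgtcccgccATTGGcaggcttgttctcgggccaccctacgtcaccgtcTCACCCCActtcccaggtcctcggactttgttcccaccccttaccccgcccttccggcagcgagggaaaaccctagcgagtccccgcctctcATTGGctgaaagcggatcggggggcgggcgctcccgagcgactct
Cyp51: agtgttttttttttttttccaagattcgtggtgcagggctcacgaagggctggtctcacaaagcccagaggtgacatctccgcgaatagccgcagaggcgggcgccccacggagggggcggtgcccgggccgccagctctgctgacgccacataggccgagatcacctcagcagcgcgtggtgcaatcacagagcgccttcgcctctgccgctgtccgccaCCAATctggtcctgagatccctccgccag
Dhcr7: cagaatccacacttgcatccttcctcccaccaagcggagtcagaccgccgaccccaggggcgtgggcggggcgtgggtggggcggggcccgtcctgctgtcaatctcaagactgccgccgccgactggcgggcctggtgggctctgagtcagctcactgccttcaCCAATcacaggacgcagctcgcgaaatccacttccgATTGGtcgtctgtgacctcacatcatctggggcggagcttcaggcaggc

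Totals ran from 10005066 to 32824795 counted reads in all libraries but 1, and replicate 1 of the Apcfl/fl mice held 516985, where the lowest count of a member was 6 reads, for Idi1. Levels are given as normalised CPM, read counts relative to library size scaled by TMM over all 53 libraries, and changes as log2 fold changes with the standard error (SE) of an edgeR quasi-likelihood fit of the 2 groups alone, with p-values adjusted over all genes tested and a threshold of 0.05. Epithelial markers were present in every library, with summed levels of 10 markers from 7169 normalised CPM upwards, and summed colonocyte markers separated colon from small intestine as labelled. Enterocyte markers summed to 36.3 in Apcfl/+ tumour 2, and the sum of 3585 in the colon of antibiotic-treated BA mouse 2 exceeded 3446 in Apcfl/fl mouse 5. Apcfl/+ tumour 2 had the lowest level of 6 members in its group, BA tumour 2 that of 7, and antibiotic-treated BA mouse 3 that of all 8, so results that rest on these libraries are also given without them. The counts of Apc, Braf and Tgfbr1, the gene of ALK5, sum all transcripts and do not check recombination. The library kit does not mark strand, and reads from the stretches where Cyp51 overlaps Akap9, Hmgcs1 Gm48342, Idi1 Gm48574 and Lss 4930483K19Rik on the other strand cannot be assigned to either gene. Values of Fdps, Idi1 and Hmgcs1 are less certain, because 27.6%, 26.5% and 12.7% of the 36-base words in their transcripts also occur in those of other genes.

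All 8 genes were expressed in every group, and their group means spanned 3.64-fold for Idi1 to 5.36-fold for Hmgcs1. Antibiotic-treated BA mice had the highest mean of 6 members, with Hmgcs1 at 572 ± 124 (SD, n = 5) normalised CPM, and untreated BA mice at day 30 that of Srebf2, at 357 ± 15.7 (SD, n = 5), and Dhcr7, at 113 ± 7.14 (SD, n = 5). WT small intestine without a stated day was lowest for Srebf2, Hmgcs1, Sqle and Cyp51, and Idi1 was lowest in A mice at 8.85 ± 2.53 (SD, n = 4). With the groups ordered by mean, neighbours overlapped in 8 of 10 steps for Hmgcs1, in 9 for Fdps and Sqle and in all 10 for the other 5 genes. The 2 clear steps of Hmgcs1 separated untreated BA mice from the next group, sulindac-treated A mice, and WT proximal colon from WT small intestine, both without a stated day. Per kilobase of exon, Hmgcs1 had the highest level of the 8 in all 4 WT groups, from 23.2 to 43.3 normalised CPM per kb, and Lss, Fdps and Idi1 stayed between 2.66 and 6.85 there. As a ratio between the highest and the lowest WT group on this scale, Dhcr7 differed most, at 17.9 in day 30 colon and 3.74 in the small intestine without a stated day, and its rank among the 8 was 4 in the former and 8 in WT proximal colon without a stated day, where it measured 5.39.

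**Figure D1:**
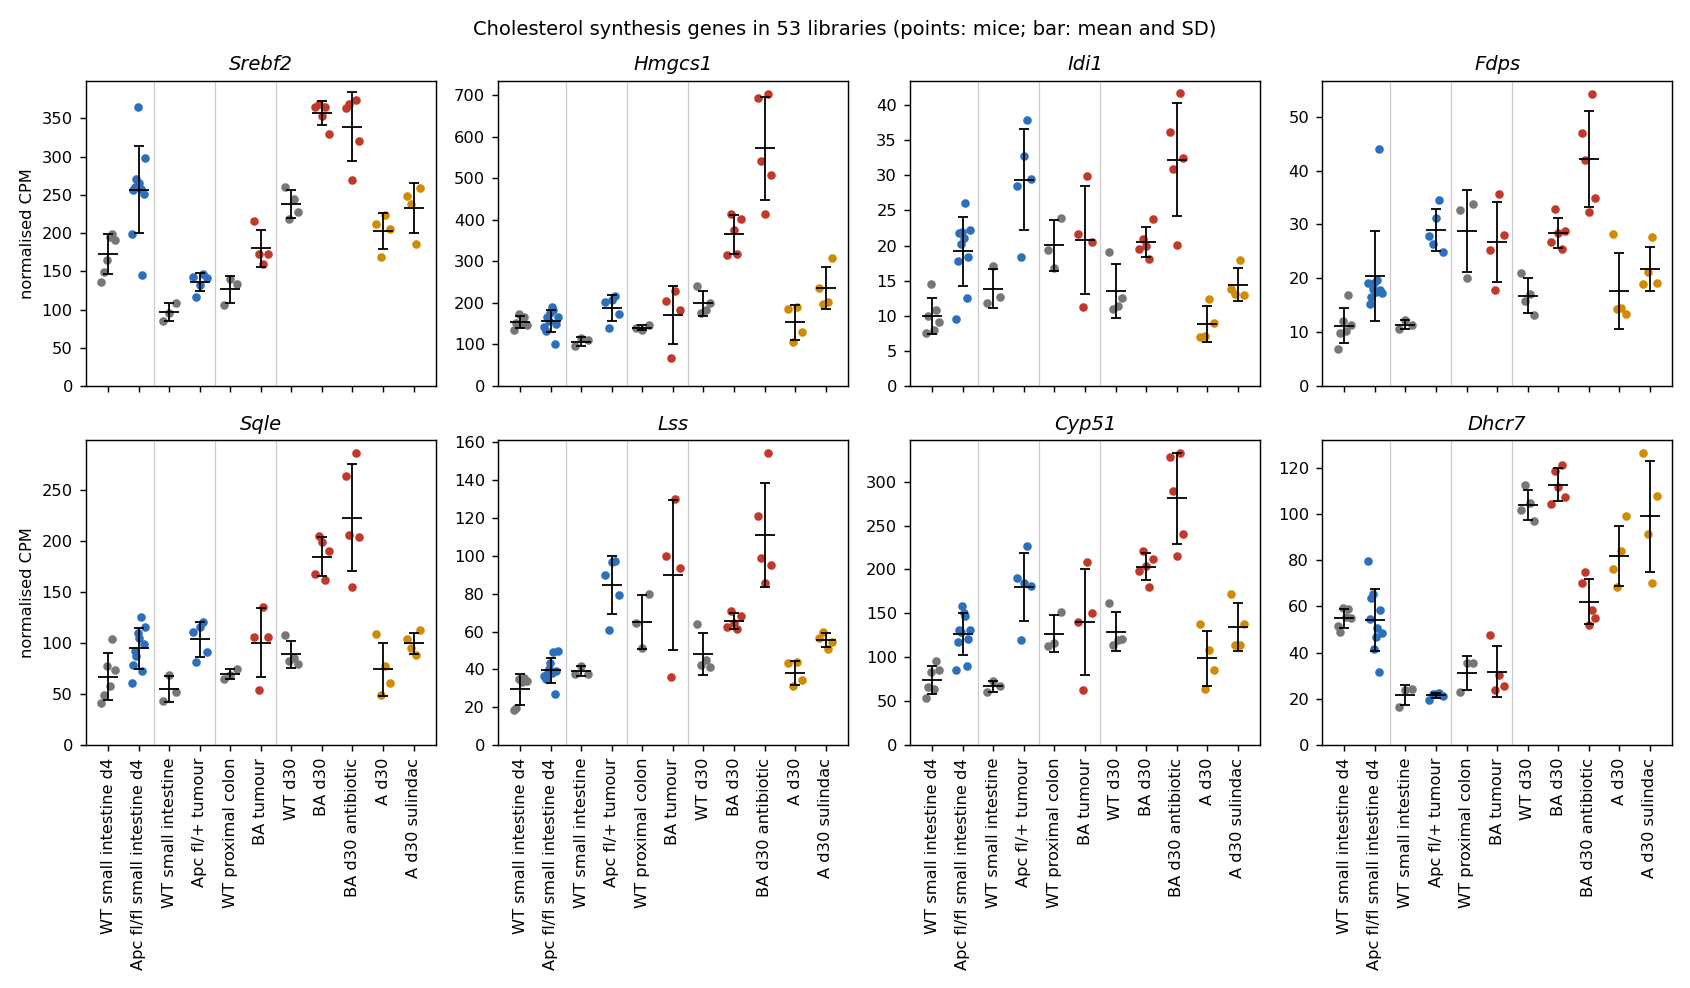
Normalised CPM of each member gene (linear axis from 0) in the 11 groups, with 1 point per mouse and bars for the group mean and SD. Hmgcs1 was highest in antibiotic-treated BA mice and its day 30 BA groups lay above all WT libraries. Dhcr7 was higher in day 30 colon, though less so with antibiotics, and about as low in both tumour types as in their WT groups.

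In the proximal colon of BA mice at day 30, 7 of the 8 genes rose relative to WT and none fell, against 55.1% of all genes called in either direction and 25.8% called higher. The median log2 fold change of the 8 was 0.62, and that of all genes tested was -0.03. Srebf2 measured 365, 369, 354, 365 and 330.3 normalised CPM in the 5 BA mice and 259.9, 218, 244 and 228 in the 4 WT mice. Every BA mouse lay above every WT mouse. The change was 0.57 ± 0.07 (SE) on the log2 scale, or 1.49-fold (95% interval 1.34 to 1.66, edgeR adjusted p = 4.62e-05). For Hmgcs1, the entry enzyme, BA mice had 315, 415, 375, 318 and 403 and WT mice 241, 175, 182 and 199, again without overlap. Its change was 1.82-fold (95% interval 1.53 to 2.16, edgeR adjusted p = 7.88e-05).

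Of the 2 isoprenoid enzymes at day 30, Fdps was clear of WT in all 5 BA mice and Idi1 was not. Fdps measured 26.7, 32.8, 28.4, 25.4 and 28.7 in BA mice and 21.0, 15.8, 17.1 and 13.1 in WT mice (log2 fold change 0.75 ± 0.12, edgeR adjusted p = 0.000421). Idi1 measured 19.5, 20.9, 19.9, 18.1 and 23.8 in BA mice and 19.1, 10.9, 11.4 and 12.5 in WT mice (log2 fold change 0.59 ± 0.15, edgeR adjusted p = 0.00706), where WT mouse 1 reached the range of the BA mice. Among the sterol enzymes, Sqle showed the largest rise of the 8, with 168, 205, 199, 162 and 189.9 in BA mice against 108, 82.8, 85.1 and 79.8 in WT mice. No WT mouse came near the lowest BA mouse, and the change was 2.06-fold (95% interval 1.76 to 2.41, edgeR adjusted p = 1.02e-05). Cyp51 ran from 181 to 221 in BA mice and from 114 to 162 in WT mice (log2 fold change 0.64 ± 0.10, edgeR adjusted p = 0.000324). Lss had the smallest rise that passed, 0.43 ± 0.12 on the log2 scale (edgeR adjusted p = 0.00938), with 61.2 to 71.1 in BA mice and 1 WT mouse at 64.2 inside that range. Dhcr7, at 104 to 121 in BA and 97.2 to 112 in WT mice, did not pass (log2 fold change 0.10, 95% interval -0.05 to 0.25, edgeR adjusted p = 0.234). In all, 5 members had groups that did not overlap, against 45.2% of all genes. WT mouse 1 had the highest WT level of 7 members, and without it each of the 7 calls remained, with Lss at 0.60 ± 0.07 and Idi1 at 0.80 ± 0.10.

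Other genes of the pathway moved with the members at day 30. Of 12 further synthesis enzymes, 8 rose in BA mice and none fell, from Ebp at 0.33 ± 0.08 and Mvk at 0.36 ± 0.09 to Fdft1 at 0.81 ± 0.09 and Msmo1 at 0.91 ± 0.11 (edgeR adjusted p = 4.99e-05 for Msmo1). Fdft1 encodes squalene synthase and Msmo1 a sterol methyl oxidase that acts after CYP51. Insig1, whose protein retains SREBP2 in the endoplasmic reticulum and which is itself a target of SREBP2, changed by 1.64 ± 0.18, from 62.2 to 89.6 in WT to 153 to 286 in BA mice (edgeR adjusted p = 1.96e-05). It was 1 of 4 of the 6 SREBP regulators that rose, with Mbtps2, Insig2 and Scap, which were 0.31 to 0.50 higher. Epithelial markers also rose. In BA mice 8 of 10 were higher with a median log2 fold change of 0.77, and their summed level was 25785 to 29821 normalised CPM in BA against 13058 to 15606 in WT mice. Smooth muscle markers were lower, with 6 of 8 called and sums of 1025 to 4220.0 against 5235 to 6099. Of the enterocyte markers tested 4 of 5 were higher, and 4 of 6 colonocyte, 6 of 8 fibroblast and all 6 enteric neuron markers were lower. The part of these cells was not tested. Per 1000 normalised CPM of epithelial markers, the 8 members together were lower in BA mice, at 45.7 to 50.1 (median 46.6). WT mice measured 49.4 to 73.4 (median 60.7), and only BA mouse 2 lay above the lowest WT mouse. The non-coding gene Gm13394 exceeded 10 CPM in none of the 4 WT libraries and in all other day 30 libraries, and what that marks cannot be told apart from genotype in comparisons with these WT mice.

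**Figure D2:**
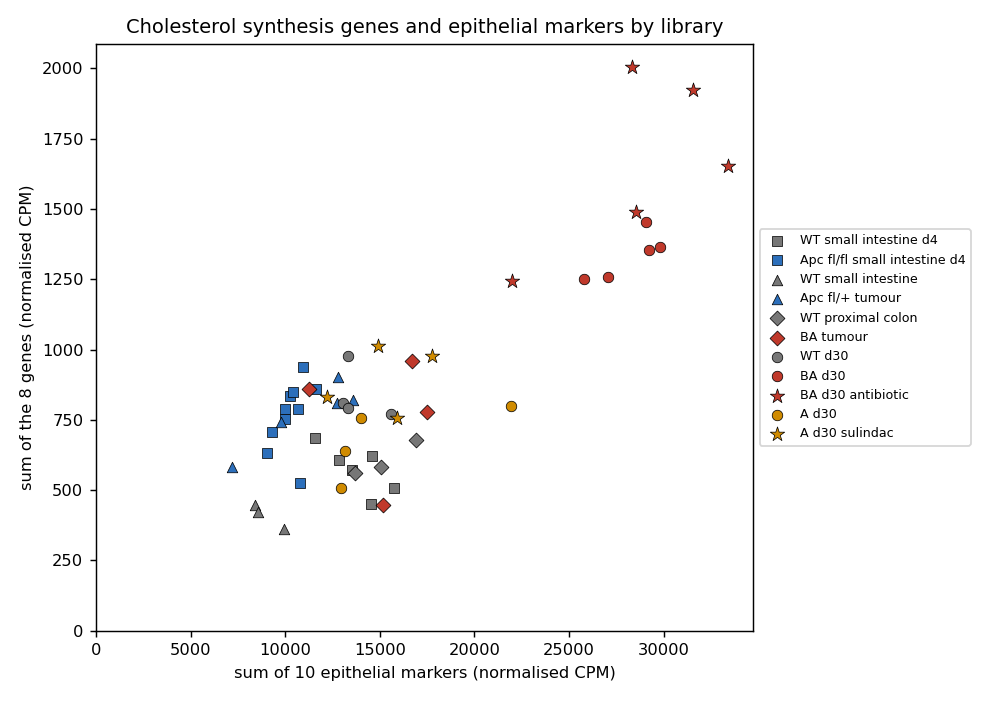
Summed normalised CPM of the 8 members against the summed normalised CPM of 10 epithelial marker genes, 1 point per library and 1 combination of colour and shape per group. Untreated and antibiotic-treated BA mice had the highest sums on both axes, and BA mice lay at 45.7 to 50.1 member CPM per 1000 epithelial CPM.

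In antibiotic-treated BA mice all 8 members differed from WT: 7 rose and Dhcr7 fell, against 39.6% of all genes called, 21.8% higher and 17.8% lower. Their median log2 fold change was 1.23, with 0.01 over all genes, and the comparison shares its 4 WT mice with the others at day 30. Hmgcs1 reached 693, 543, 415, 702 and 508 in the 5 treated mice, all above the highest WT mouse at 241, a change of 2.87-fold (95% interval 2.25 to 3.67, edgeR adjusted p = 4.61e-05). The other enzymes that rose changed by 1.12 for Cyp51, 1.21 for Lss, 1.25 for Idi1, 1.33 for Fdps and 1.33 for Sqle on the log2 scale. Srebf2 rose by 0.52 (edgeR adjusted p = 0.00193). Dhcr7 measured 70.1, 74.7, 52.0, 58.6 and 55.2 in treated mice and 102, 112, 105 and 97.2 in WT mice. All treated mice lay below all WT mice, with a log2 fold change of -0.74 ± 0.10 (edgeR adjusted p = 0.000308). None of the 8 genes overlapped between these groups, against 34.1% of all genes without overlap. Without treated mouse 3 the 8 calls remained, with Hmgcs1 at 1.601 ± 0.14 and Dhcr7 at -0.70 ± 0.10. Of the further synthesis enzymes, 10 of 12 rose and none fell, among them Hsd17b7 at 1.27 ± 0.15 and Msmo1 at 1.23 ± 0.14. Epithelial markers rose here too, 8 of 10 with a median of 0.81 and sums of 21981 to 33414 against 13058 to 15606 in WT mice. Per 1000 epithelial CPM the members measured 49.5 to 70.8 in treated and 49.4 to 73.4 in WT mice, which overlapped. Proliferation markers were higher in 5 of 8 and enterocyte markers in 3 of 5 tested, and 4 of 6 colonocyte markers were lower.

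Set against untreated BA mice, which tests the cocktail within the genotype, 5 members rose and 1 fell, while 13% of all genes were called, 4.53% higher and 8.5% lower. The median over the 8 was 0.52 and over all genes 0.03. The largest rise was that of Lss, the enzyme that forms lanosterol, with 121, 98.7, 85.8, 154 and 95.3 in treated and 62.5, 71.1, 64.4, 61.2 and 68.3 in untreated mice. Its groups did not overlap, and the change was 1.70-fold (95% interval 1.39 to 2.07, edgeR adjusted p = 0.00407). Idi1 measured 36.2, 30.8, 20.02, 41.7 and 32.4 with antibiotics and 19.5, 20.9, 19.9, 18.1 and 23.8 without (log2 fold change 0.66 ± 0.15, edgeR adjusted p = 0.0165). Hmgcs1 changed by 0.65 ± 0.13 (edgeR adjusted p = 0.00982). In both genes 4 treated mice lay above all untreated mice, and treated mouse 3 lay inside or at the edge of their range. Fdps, at 46.9, 41.9, 32.4, 54.3 and 35.0 against 26.7, 32.8, 28.4, 25.4 and 28.7, changed by 0.57 ± 0.13 (edgeR adjusted p = 0.0136). Cyp51, at 327, 289, 215, 332 and 240.2 against 199, 221, 204, 181 and 212, changed by 0.47 ± 0.11 (edgeR adjusted p = 0.0164). In these too the lowest treated mouse was mouse 3, just below the highest untreated mouse on this scale. With both groups scaled alone, 5 members had no overlap, against 11.8% of all genes.

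Dhcr7 went the other way under antibiotics. Treated mice had 70.1, 74.7, 52.0, 58.6 and 55.2 and untreated mice 104, 119, 111, 121 and 108, without overlap, a log2 fold change of -0.86 ± 0.09 (edgeR adjusted p = 0.000392). Sqle, with 264, 206, 155, 286 and 204 against 168, 205, 199, 162 and 189.9, did not pass at 0.27 (95% interval -0.03 to 0.57, edgeR adjusted p = 0.197). Srebf2, with 269.5 to 375 against 330.3 to 369, gave -0.07 (95% interval -0.24 to 0.10, edgeR adjusted p = 0.571). The 5 enzyme genes rose beside a level of Srebf2 mRNA that overlapped between the groups. Treated mouse 3 had a summed fibroblast marker level of 8062 normalised CPM, against 1248 to 1746 in the other 4, and an adipocyte sum of 1797 against 36.4 to 62.0, and the part of these cells in its low member levels was not tested. Without it, 6 members rose and 1 fell, with Sqle at 0.36 ± 0.11 (edgeR adjusted p = 0.0474) and Lss at 0.83 ± 0.12. With the replicate number as a block Hmgcs1 and Cyp51 missed the threshold (0.63 and 0.45, edgeR adjusted p = 0.0528 and 0.0557), and in a fit of all 5 day 30 groups Fdps and Cyp51 did (0.56 and 0.46, edgeR adjusted p = 0.0699 and 0.111).

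Under antibiotics 6 of the 12 further synthesis enzymes rose and none fell. Pmvk and Hsd17b7 rose the most, by 0.74 and 0.60, and Tm7sf2 and Mvk the least, by 0.38 and 0.36 (edgeR adjusted p from 0.00125 to 0.044 over the 6). Insig1 gave -0.50 (edgeR adjusted p = 0.0611) and Insig2 fell by 0.47 (edgeR adjusted p = 0.0016). None of the 10 epithelial markers was called between treated and untreated BA mice, their median change was -0.03, and their sum was 21981 to 33414 against 25785 to 29821 normalised CPM. Enterocyte marker sums were higher in every treated mouse, at 2290.4 to 3585 against 1511 to 2175, with 1 of 5 tested markers called. Of the proliferation markers 3 of 8 were called higher, and 1 of 6 colonocyte markers was called lower. No fibroblast marker was called by edgeR, while 7 of 8 had an unadjusted p under 0.05, with a median of 1.15 over the 8. What part these markers had in the member changes was not tested. Per 1000 epithelial CPM the members measured 49.5 to 70.8 in treated and 45.7 to 50.1 in untreated mice.

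**Figure D3:**
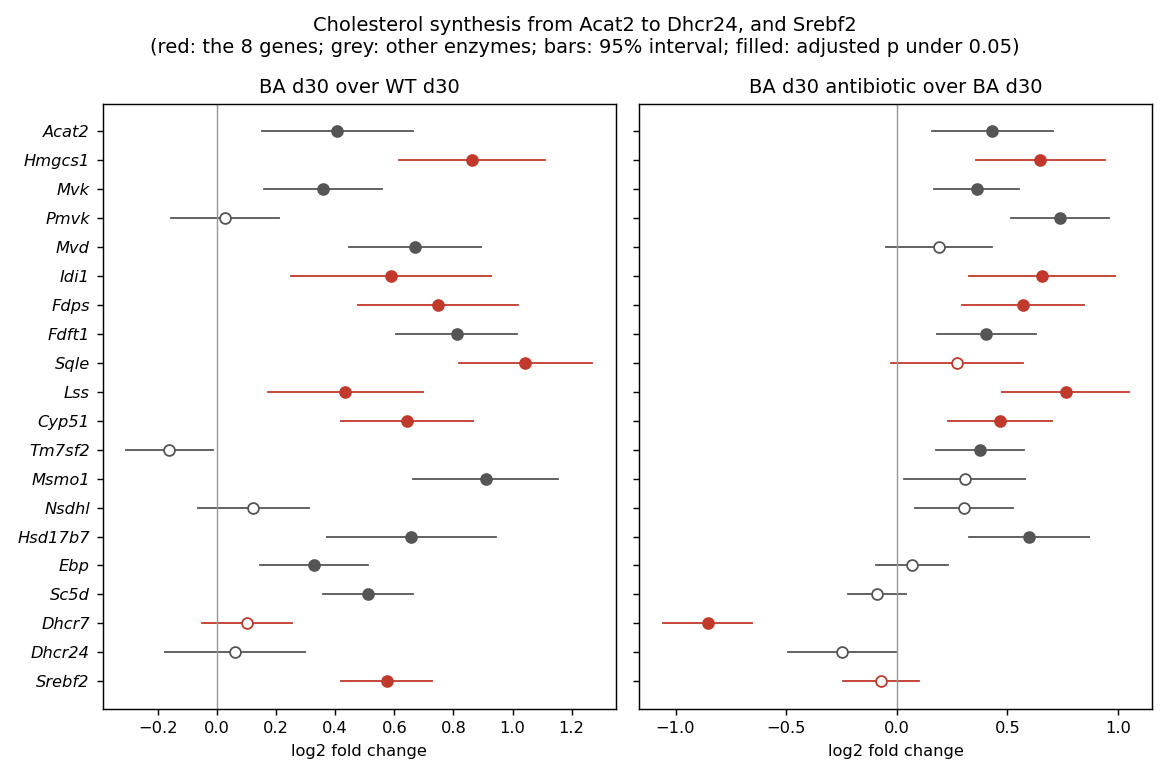
Log2 fold changes (points) with 95% intervals (bars) of the 8 members and 12 further synthesis enzymes in pathway order, for BA against WT mice (left) and antibiotic-treated against untreated BA mice (right) at day 30. Members are red, and filled points passed an edgeR adjusted p of 0.05. Sqle had the largest change of the members in the first comparison (1.04) and Dhcr7 the only called fall in the second (-0.86).

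Loss of ALK5 alone was compared with WT at day 30 in A mice. No member was called, where 0.141% of all genes were (25 genes), and no member's groups were without overlap, against 4.71% of all genes. Idi1 and Dhcr7 had an unadjusted p under 0.05, as 1717 genes did. DESeq2 called 136 genes and no member. The 8 log2 fold changes ran from -0.60 for Idi1 to 0.07 for Fdps with a median of -0.33, and that of all genes was 0.01. Idi1 measured 6.97, 7.08, 12.4 and 8.98 in A mice and 19.1, 10.9, 11.4 and 12.5 in WT mice, with 3 of the 4 A mice below every WT mouse (edgeR adjusted p = 0.499). Fdps measured 28.2, 14.3, 14.4 and 13.4 in A mice, of which mouse 1 stood above all WT mice and the other 3 at the lower end of the WT range. In sulindac-treated A mice against the same WT mice no member was called either, against 0.0507% of all genes (9 genes), none had groups without overlap, against 5.19%, and 1607 genes had an unadjusted p under 0.05. DESeq2 called 110 genes there and no member, and the changes ran from -0.06 for Dhcr7 to 0.38 for Fdps. Smooth muscle markers had a median log2 fold change of -0.55 there, and 6 of 8 had an unadjusted edgeR p under 0.05 with none called.

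Between sulindac-treated and untreated A mice 0 members and 0% of all genes were called by edgeR, while 460 genes, 3 of them members, had an unadjusted p under 0.05 and DESeq2 called 5 genes, none a member. All 8 members had higher means with sulindac, by 0.22 for Srebf2 to 0.71 for Idi1, with a median of 0.45 against 0.01 over all genes. Hmgcs1 measured 237, 198, 203 and 307 with sulindac and 184, 106, 191 and 131 without it. The lowest treated mouse was just above the highest untreated one, and the log2 fold change was 0.64 (95% interval 0.14 to 1.14, edgeR adjusted p = 1). Lss measured 56.5, 59.8, 50.7 and 54.7 with and 43.3, 31.4, 44.0 and 34.4 without sulindac (log2 fold change 0.55, 95% interval 0.23 to 0.87). Idi1 measured 13.8, 13.1, 18.0 and 12.9 with sulindac, and 3 of these mice lay just above the highest untreated mouse at 12.4 (log2 fold change 0.71, 95% interval 0.24 to 1.18). These 3 genes had no overlap between the groups, against 1.74% of all genes. Smooth muscle markers changed by -0.71 to -0.34 with sulindac, with a median of -0.55. Of these, 4 of 8 had an unadjusted edgeR p under 0.05 and none was called. The median of the epithelial markers was -0.02, and the part of these cells was not tested.

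With BRAF activation as the added allele on the ALK5-deleted background, BA against A mice, all 8 members rose at day 30, against 45.3% of all genes called and 21.7% called higher. The median log2 fold change was 0.94, with -0.06 over all genes, and this comparison shares its BA mice with those above. Dhcr7 was among the genes that rose, with 104, 119, 111, 121 and 108 in BA and 76.0, 68.3, 83.9 and 99.0 in A mice. Its highest A mouse lay below the lowest BA mouse, and the change was 0.47 ± 0.12 (edgeR adjusted p = 0.00725). Sqle rose the most, 2.52-fold (95% interval 1.88 to 3.39, edgeR adjusted p = 0.000291), from 109, 49.2, 77.8 and 60.9 in A to 168, 205, 199, 162 and 189.9 in BA mice. Srebf2 changed by 0.83 ± 0.11 (edgeR adjusted p = 0.000117). In 7 members the groups had no overlap, against 35.8% of all genes, the exception being Fdps through A mouse 1. Among further synthesis enzymes 9 of 12 rose, led by Msmo1 at 1.16 ± 0.20 and Fdft1 at 1.15 ± 0.12, and Insig1 rose by 2.01. Epithelial markers moved with this comparison too, with 8 of 10 higher and 1 lower. Per 1000 epithelial CPM the members measured 45.7 to 50.1 (median 46.6) in BA mice, inside the range of A mice at 36.4 to 54.0 (median 43.9). Smooth muscle markers were lower in 3 of 8, fibroblast markers in 4 of 8 and enteric neuron markers in 5 of 5 tested, with none of these higher. The part of these cells was not tested.

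In endpoint BA tumours against WT proximal colon no member was called by edgeR, DESeq2 or limma voom, whereas 13.2% of all genes were by edgeR. Of the members, 1, Srebf2, had an unadjusted p under 0.05 and no overlap between groups, as 27.1% of all genes had. Srebf2 measured 215, 173, 160.2 and 172 in the 4 tumours and 106, 139 and 133 in the 3 WT mice, a log2 fold change of 0.49 (95% interval 0.06 to 0.93, edgeR adjusted p = 0.131). Hmgcs1 and Cyp51 varied more between tumours than between WT mice. Hmgcs1 measured 204, 68.5, 228 and 183 in tumours and 139, 134 and 147 in WT. Cyp51 measured 140.2, 62.7, 209 and 151 in tumours and 113, 116 and 152 in WT. In both, tumour 2 lay below all WT mice and tumours 1, 3 and 4 near or above the highest. Sqle measured 106, 54.5, 135 and 106 in tumours and 64.6, 69.0 and 74.5 in WT, with 3 tumours above every WT mouse (log2 fold change 0.52, 95% interval -0.12 to 1.15, edgeR adjusted p = 0.272). Without tumour 2, Sqle passed at 0.70 ± 0.18 (edgeR adjusted p = 0.0267) and no other member did. Tumour 2 had a colonocyte marker sum of 1120 normalised CPM, the lowest of the 4, and the highest neutrophil sum at 84.9. Its enterocyte marker sum was 1623, against 242, 205 and 267 in the other tumours and 643 to 1004 in WT mice. The part of these markers was not tested. The 95% intervals held the change measured at day 30 for 7 of the 8 members, such as -0.54 to 1.07 for Hmgcs1 and -0.41 to 1.29 for Lss, while that of Fdps ended at 0.51, below its day 30 change of 0.75. None of 12 further synthesis enzymes was called, and Insig1 gave -0.06 (edgeR adjusted p = 0.902). Neutrophil markers were higher in 6 of 6, immune markers in 5 of 8, fibroblast markers in 3 of 8 and epithelial markers in 1 of 10. Lower were 3 of 6 colonocyte, 3 of 8 smooth muscle and 1 of 6 enterocyte markers. Per 1000 epithelial CPM the members measured 29.5 to 76.3 in tumours and 38.6 to 41.1 in WT mice. The part of these cells in the member levels was not tested. The Y-linked gene Ddx3y exceeded 10 CPM in 3 of 4 tumours and in none of the WT mice. A fit with a term for it sets only the remaining tumour against WT mice, so it cannot test the member changes. Gm13394 also exceeded 10 CPM in 3 of 4 tumours and in none of the WT mice. A fit with a term for it likewise sets only the remaining tumour against WT mice, and gave -1.02 for Hmgcs1.

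In the small intestine at day 4 after deletion of both Apc alleles, 6 members rose and none fell, against 54.2% of all genes called and 27.5% called higher, with a median of 0.55 for the 8 and -0.000362 for all genes. None of the 8 was without overlap between groups, against 17.8% of all genes. Idi1 rose the most, with a lowest value of 9.56, a median of 20.7 and a highest of 26.0 normalised CPM over 10 Apcfl/fl mice and a lowest value of 7.52, a median of 9.55 and a highest of 14.5 over 6 WT mice. In all, 8 of the 10 mutant mice lay above the highest WT mouse, and mouse 1, with the shallow library, and mouse 8 did not. The change was 1.97-fold (95% interval 1.55 to 2.51, edgeR adjusted p = 0.000108). Cyp51 had a lowest value of 86.0, a median of 129.9 and a highest of 159 in mutants and a lowest value of 53.7, a median of 74.9 and a highest of 95.8 in WT mice. Its ranges met only at their ends, with a log2 fold change of 0.77 ± 0.14 (edgeR adjusted p = 0.00018). Srebf2 changed by 0.59 ± 0.14 (edgeR adjusted p = 0.00249), from 136 to 198 in WT to 145 to 365 in mutants.

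Fdps in Apcfl/fl mice had a lowest value of 15.2, a median of 18.0 and a highest of 44.1, where mouse 8 held the highest value and the next lay at 19.8, and a lowest value of 6.93, a median of 10.7 and a highest of 16.8 in WT mice. The log2 fold change was 0.92 ± 0.26 with mouse 8 and 0.66 ± 0.15 without it (edgeR adjusted p = 0.0072 and 0.00136). Sqle and Lss passed narrowly at 0.51 ± 0.18 and 0.44 ± 0.16 (edgeR adjusted p = 0.022 and 0.024). Both lost the call without WT mouse 1 or WT mouse 2, and Sqle also without WT mouse 4. Hmgcs1 and Dhcr7 did not pass. Hmgcs1, with a lowest value of 100.3, a median of 161 and a highest of 189 in mutants and a lowest value of 135, a median of 151 and a highest of 174 in WT mice, gave 0.04 (95% interval -0.18 to 0.26, edgeR adjusted p = 0.788). Dhcr7 gave -0.02 (95% interval -0.33 to 0.29, edgeR adjusted p = 0.923). Among further synthesis enzymes 6 of 12 rose, led by Fdft1 at 0.86 ± 0.18 and Acat2 at 0.80 ± 0.14, and Sc5d fell by 0.66. Insig1 fell by 0.29 (edgeR adjusted p = 0.0201). Epithelial markers gave 1 call higher and 3 lower, with a median of -0.16, all 6 enterocyte markers fell and all 8 proliferation markers rose. Per 1000 epithelial CPM the members measured 48.6 to 85.7 (median 75.7) in mutants and 31.0 to 59.3 (median 42.5) in WT mice.

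In Apcfl/+ tumours of the small intestine 7 members rose and none fell, against 61.5% of all genes called and 31.4% called higher. The median over the 8 was 1.11, with 0.03 over all genes. Cyp51 rose the most, with 191, 119, 184, 226 and 181 in the 5 tumours and 60.4, 73.1 and 67.1 in the 3 WT mice. All tumours lay above all WT mice, and the change was 2.90-fold (95% interval 2.12 to 3.96, edgeR adjusted p = 0.000296). Fdps measured 27.8, 26.4, 31.3, 34.5 and 24.9 against 10.6, 12.3 and 11.3 (log2 fold change 1.45 ± 0.14, edgeR adjusted p = 7.47e-05). Lss measured 89.8, 60.7, 96.6, 97.3 and 79.1 against 37.7, 42.0 and 37.7 (log2 fold change 1.22 ± 0.16, edgeR adjusted p = 0.000365). Hmgcs1, which had not passed at day 4, measured 202, 139, 207, 217 and 174 in tumours and 95.1, 115 and 109.9 in WT mice (log2 fold change 0.92 ± 0.16, edgeR adjusted p = 0.0014). In each of these genes tumour 4 was highest, and no tumour fell into the WT range. Idi1, Sqle and Srebf2 changed by 1.19, 1.02 and 0.60 (edgeR adjusted p from 0.00176 to 0.00268).

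Dhcr7 was the exception in these tumours as well, with 19.6, 22.1, 22.2, 22.5 and 21.4 against 16.8, 24.0 and 24.5 in WT mice (log2 fold change 0.09, 95% interval -0.23 to 0.41, edgeR adjusted p = 0.6). In 7 members the groups had no overlap, against 59.4% of all genes and 29.9% for groups that were wholly higher. The 7 calls remained without tumour 2, with Cyp51 at 1.65 ± 0.11, and Srebf2 lost its call with the replicate number as a block (0.55, edgeR adjusted p = 0.0514). Of the further synthesis enzymes 9 of 12 rose, from Hsd17b7 at 0.62 ± 0.16 to Mvd at 1.85 ± 0.14 and Fdft1 at 1.87 ± 0.12. Insig1 rose by 1.04 (edgeR adjusted p = 0.00331). Of the epithelial markers 4 of 10 were higher and 1 lower, with a median of 0.24, and per 1000 epithelial CPM the members measured 60.4 to 81.4 in tumours and 36.4 to 53.3 in WT mice. Fibroblast markers were higher in 6 of 8 with a median of 1.04, neutrophil markers in 5 of 6 with a median of 3.93 and proliferation markers in 4 of 8 with 1 lower. Lower were 5 of 8 immune, 4 of 8 smooth muscle and 3 of 6 enterocyte markers, and the part of these cells was not tested. Ddx3y exceeded 10 CPM in 1 of 5 tumours and in all 3 WT mice. A fit with a term for it sets only that tumour against WT mice and cannot test the 7 calls.

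**Figure D4:**
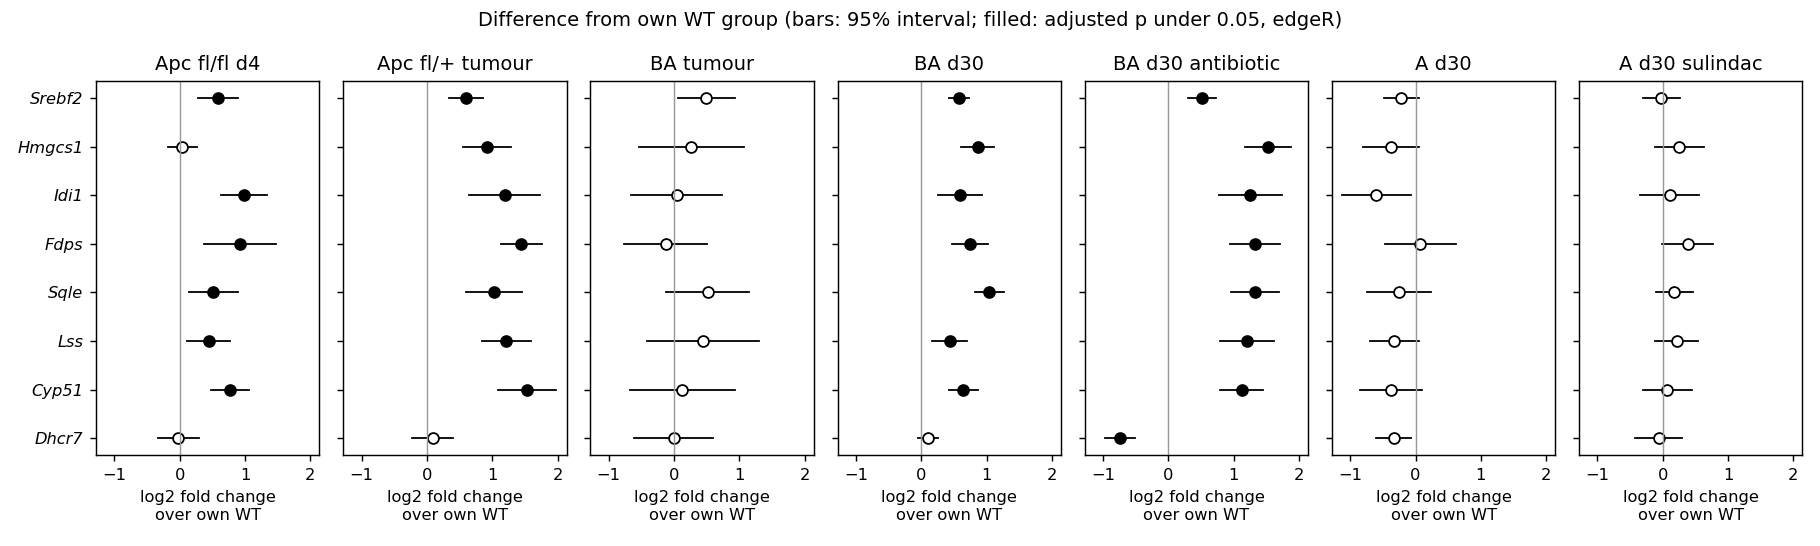
Log2 fold changes (points) with 95% intervals (bars) of the 8 members in each group over its own WT group. Filled points passed an edgeR adjusted p of 0.05, which no member did in BA tumours or in A mice with or without sulindac, and Dhcr7 lay between -0.74 and 0.10 where other members rose.

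Whether these changes differed between settings was tested with interaction terms in edgeR. For 3 members the change from WT colon to BA tumours lay below the change from WT small intestine to Apcfl/+ tumours, against 39.7% of all genes called and 17.7% called lower. The difference was -1.55 ± 0.32 for Fdps, -1.37 ± 0.42 for Cyp51 and -1.12 ± 0.40 for Idi1 on the log2 scale (edgeR adjusted p = 0.00234, 0.0192 and 0.0387). Idi1 lost its call without WT colon mouse 1 or 3, WT small intestine mouse 1 or 3, or Apcfl/+ tumour 4. Cyp51 also lost its call without WT colon mouse 3, where only 1 member remained called. With a term for Ddx3y reads only Fdps of the 3 remained called. Ddx3y exceeded 10 CPM in 3 of 4 BA and 1 of 5 Apcfl/+ tumours, in no WT colon mouse and in all 3 WT small intestine mice. That term rests on few tumours and cannot decide whether the differences hold. A term for Gm13394 reads could be estimated only among BA tumours, where 3 of 4 exceeded 10 CPM. No Apcfl/+ tumour but all of their WT mice exceeded that level. The fit with this term rests on the remaining BA tumour and cannot test the difference. Strain background and tissue differ with genotype between these tumour types and cannot be told apart from it. Between BA tumours and BA mice at day 30, each against its WT, no member was called, against 16.3% of all genes, and Fdps was closest at -0.88 ± 0.29 (edgeR adjusted p = 0.0503). It passed with RLE scaling, with DESeq2 (adjusted p = 0.0215), with limma voom and without the low-count filter. For the other 7 members the changes at day 30 and in tumours were not shown to differ. Between Apcfl/+ tumours and Apcfl/fl mice at day 4, 3 members rose more in tumours, against 24.7% of all genes called and 12.4% called higher. They were Hmgcs1 at 0.85 ± 0.20, Lss at 0.73 ± 0.25 and Cyp51 at 0.72 ± 0.25 (edgeR adjusted p = 0.00436, 0.0344 and 0.0372). Strain background, Apc genotype and tumour against day 4 tissue differ together in this test and cannot be told apart. With RLE scaling, which moved the median of all genes in this test from -0.02 to -0.16 and the share of calls that were higher from 50.3% to 37.8%, only Hmgcs1 of the 3 remained called. The same count of 1 was reached without WT day 4 mouse 3, 5 or 6, without any 1 of the 3 WT mice of the tumour comparison and without tumour 1, 3, 4 or 5.

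The members also varied together from mouse to mouse. As log2 CPM relative to the mean of the own WT group, over 53 libraries that differ in depth and tissue makeup, Cyp51 had a Pearson r of 0.954 with the mean of the other 7, Sqle 0.936, Lss 0.929, Idi1 0.884, Hmgcs1 0.798, Fdps 0.752 and Srebf2 0.737. After each group's own mean was removed, the values were 0.924 for Cyp51, 0.907 for Sqle, 0.887 for Lss, 0.868 for Hmgcs1 and 0.722 for Idi1, but 0.515 for Srebf2 and 0.308 for Fdps. Dhcr7 stood apart with -0.113 across and 0.224 within groups. Of 10570 genes with a mean log2 CPM of at least 3, members left out, the profile most like the mean of the 8 was that of Aacs, which encodes acetoacetyl-CoA synthetase, with r = 0.930 and 0.853 within groups. Lmna, Mpzl3, the synthesis enzyme gene Fdft1 and Eef2k followed with 0.881, 0.875, 0.873 and 0.851.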

How the data were processed

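RNA of whole intestinal tissue was sequenced with paired reads of 36 bases. The submitters' processing notes name FastQC 0.11.8, Trim Galore 0.6.4, HISAT2 2.1.0, featureCounts 1.6.4 and GRCm38. The authors deposited raw counts per gene, without normalisation, as 1 table of 55421 genes, of which 55154 were given a symbol. The library kit does not mark strand, and the strand setting and the counting of reads with several matches are not given in the sources used here. Library totals ran from 516985 to 32824795 reads. The 8 genes, the gene lists and the tests were chosen with earlier results of these data known.

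From these counts each comparison was fitted with the 2 groups alone by the quasi-likelihood test of edgeR 4.0.16 in R 4.3.3, after filterByExpr and TMM scaling. P-values are two-sided and adjusted over all genes tested by the Benjamini-Hochberg method. Differences between effects were contrasts in fits of 4 groups. Alternatives were RLE scaling, DESeq2 1.42.0, limma voom (limma 3.58.1), fitting without the low-count filter, a block for replicate number, 1 fit of all 5 groups at day 30, terms for libraries with over 10 CPM of Gm13394 or of Ddx3y, and each library left out in turn. The fits were tested on simulated data. Correlations used log2 CPM (prior count 2) minus the mean of the WT group of the same tissue and day. All 8 genes are named throughout. From each other list of pathway genes up to 2 called genes with the largest and 2 with the smallest change per comparison could be named, with Insig1 always, and the 5 genes most like the members. Some genes of the pathway are not reported here. To measure shared sequence, all stretches of 36 bases in the transcripts of a gene were looked up on both strands of other genes' transcripts.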

Additional observations from a re-analysis of the deposited data

Results flagged for a closer look

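Among 72 combinations of a member and a group of 4 to 10 mice, 5 held 1 mouse farther from the others than the Dixon limit allows, where chance flags about 1 in 20. Idi1 measured 18.0 normalised CPM in sulindac-treated A mouse 3 and 12.9 to 13.8 in the other 3. Fdps measured 44.1 in Apcfl/fl mouse 8 and 15.2 to 19.8 in the other 9, and 28.2 in A mouse 1 against 13.4 to 14.4 in the other 3. WT mouse 1 at day 30 stood apart in 2 genes, Lss at 64.2 against 41.1 to 45.0 and Cyp51 at 162 against 114 to 121. That mouse had the highest WT level of 7 of the 8 genes.

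Of 24 differences between 2 effects tested with edgeR, 6 passed. Of all genes, 39.7% were called between BA and Apcfl/+ tumours and 16.3% between BA tumours and day 30. Between Apcfl/+ tumours and day 4 the share was 24.7%. The change in BA tumours was below that in Apcfl/+ tumours by -1.55 for Fdps, -1.37 for Cyp51 and -1.12 for Idi1 on the log2 scale. The change in Apcfl/+ tumours exceeded that in Apcfl/fl mice at day 4 by 0.85 for Hmgcs1, 0.73 for Lss and 0.72 for Cyp51.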

How the results depend on the processing

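For the 8 members, 618 results kept their side of the threshold over the alternatives other than leaving out libraries. Those that passed also kept their direction, which was not required of those that did not pass. A further 8 newly passed, 13 no longer passed and 1 turned. The last was Hmgcs1 in BA tumours against WT colon, -1.02 with a term for Gm13394 reads, where the tumour effect rests on 1 tumour. With that term Npc1 was -0.16 in the difference between BA and Apcfl/+ tumours. In the difference between BA and Apcfl/+ tumours called members went from 3 to 1 with the Y-linked term, which rests on few tumours and cannot decide whether the differences hold. Fits of BA tumours with the Gm13394 term rest on 1 tumour, and their counts of calls are not given. Between BA tumours and day 30 called members went from 0 to 1 with RLE scaling, DESeq2, limma voom and no low-count filter, each time Fdps. Between Apcfl/+ tumours and day 4 they went from 3 to 1 with RLE scaling and with no filter. The cause was not tested. The Gm13394 term could not be fitted for the 2-group comparisons at day 30 or for Apcfl/+ tumours against WT mice.

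Leaving out 1 library gave 4 to 6 called members in Apcfl/fl mice (4 without WT mouse 1 or 2), 0 to 1 in BA tumours (1 without tumour 2), 6 to 7 for antibiotics within BA mice, 1 to 4 for BA against Apcfl/+ tumours (1 without WT colon mouse 3), 0 to 1 for BA tumours against day 30 (1 without BA tumour 3, WT colon mouse 2 or WT day 30 mouse 1) and 1 to 4 for Apcfl/+ tumours against day 4. In the last, 1 remained without WT day 4 mouse 3, 5 or 6, without any 1 of the 3 WT mice or without tumour 1, 3, 4 or 5. Counts in the other 7 comparisons did not move.

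The numbers shared by the labels stand for different mice, and in 0 of 10 comparisons was the correlation of all equal-numbered mice above 0.1. The replicate block gave 6 called members in Apcfl/+ tumours and 4 for antibiotics within BA mice, and changed the call of no member but Srebf2, Hmgcs1 and Cyp51, as given above.

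Counts over all genes moved by more than 1.5 times in Apcfl/+ tumours (12650 called, 8333 with the block) and BA tumours (2527, 3798 with DESeq2, 931 with the block). They also moved in A mice (25, 136 with DESeq2, 72 with no filter) and for antibiotics within BA mice (2172, 1284 with the block, 1074 in the fit of 5 groups). Sulindac-treated A mice against WT moved too (9, 110 with DESeq2, 24 with no filter, 2 with the block, 29 in the fit of 5 groups). So did sulindac within A mice (0, 5 with DESeq2, 1 with no filter, 1 with the block). With the Gm13394 term the difference between Apcfl/+ tumours and day 4 went from 5486 to 3127. Fits in which a term leaves 1 tumour to carry the tumour effect are left out here. Depth limits the shallow Apcfl/fl library most, where Idi1 had 6 reads.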

Other observations

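Beside synthesis, the genes that move cholesterol out of cells or store it changed in the small intestine. At day 4 after Apc deletion 6 of 7 genes of sterol export and LXR signalling fell and none rose, led by Abcg5 at -2.01 ± 0.27 and Abcg8 at -1.52 ± 0.27 on the log2 scale (edgeR adjusted p = 1.57e-05 and 0.00019), the paired transporters that return sterols to the gut lumen. Of all 17536 genes tested there, 4688 fell. In Apcfl/+ tumours 4 of the 7 fell, where 6189 of all 20567 genes fell. Abcg5 fell by 2.43 and Abcg8 by 2.05, and Abcg1 rose by 1.36. Of the 2 genes that esterify cholesterol, Soat1 rose and Soat2, the intestinal form, fell in both, at 1.63 and -1.72 at day 4 and at 1.56 and -2.24 in tumours. Npc1l1, which takes up dietary cholesterol, fell in both, at -1.85 ± 0.28 and -3.54 ± 0.89 (edgeR adjusted p = 4.64e-05 and 0.00818). Small intestinal enterocyte markers fell beside these genes, 6 of 6 at day 4 and 3 of 6 in tumours, and their part was not tested.

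The 8 genes listed for fatty acid synthesis and desaturation, known targets of SREBP1, differed in direction between settings. In Apcfl/+ tumours 7 of 8 rose, as did 6461 of all 20567 genes, with Scd2 at 3.12 ± 0.26 and Scd1 at 2.60 ± 0.61 (edgeR adjusted p = 4.32e-05 and 0.00562), and at day 4 after Apc deletion 6 rose and Scd1 fell, by 1.87, where 4816 of all 17536 genes rose. In BA mice at day 30, where 7 members rose, 5 of these 8 fell and none rose, where 5118 of all 17471 genes fell, Scd1 at -1.56 ± 0.17 and Fads1 at -0.86 ± 0.15 the most (edgeR adjusted p = 2.34e-05 and 0.000652). In BA tumours Scd1 alone of the 8 passed and fell by 1.26 (edgeR adjusted p = 0.0461), and in antibiotic-treated against untreated BA mice Scd2 rose by 0.46 and Elovl6 fell by 0.21.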
